A study of Homo sapiens with 18 samples.

Results

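The genes described here are 52 genes of DNA replication and deoxynucleotide synthesis, taken from a list named by function. That list was chosen with earlier results of these data known. All 52 were among the 38716 gene symbols in the tables. They fell by function into 9 groups: 10 genes of origin licensing, 6 of helicase activation, 4 kinase and cyclin genes of S-phase entry, 9 of the polymerases and primase, 6 of the sliding clamp and its loader, 3 of single-strand binding, 3 of Okazaki fragment processing, 5 of fork protection and chromatin assembly, and 6 of nucleotide supply. Ribosome profiling (Ribo-seq, the sequencing of mRNA fragments shielded by ribosomes, called footprints) and mRNA-seq were carried out on IMR90, a fibroblast line from human fetal lung. The 18 libraries comprised 3 replicates of each assay in each of 3 conditions. Young cells were proliferating cells of low passage, old cells had been passaged until they entered replicative senescence, and ICM cells were low-passage cells exposed to inflachromene, a small molecule that binds HMGB1 and HMGB2. IMR90 derives from a single fetus, so that the replicates are separate cultures and not separate people. The study calls its replicative senescence data equivalent ones of an earlier date in one place and describes the 3 conditions together in its methods. The labels name no batch, so whether the old libraries are a batch of their own is not known here.

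A cell copies its genome once per division. Before S phase, the origin recognition complex with CDC6 and CDT1 loads the ring-shaped MCM2-7 helicase onto DNA, which licenses each origin. Cyclin E and the CDC7-DBF4 kinase then promote the joining of CDC45 and GINS, which turns the ring into an active helicase. Polymerase alpha with primase lays down primers, polymerases delta and epsilon extend them on the PCNA clamp, and ribonucleotide reductase and thymidylate synthase supply deoxynucleotides. In growing fibroblasts many of these genes are transcribed in late G1 and S phase under E2F factors, and arrested cells carry less of their mRNA.

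Reads used per library ranged from 7902301 to 14144345 in mRNA-seq (5′ UTR, CDS and 3′ UTR) and from 46170 to 1718431 in Ribo-seq (CDS only). The CDS took 15.0% to 88.8% of Ribo-seq reads, and young replicate 1 (34.4%) and old replicate 2 (15.0%) stood apart by this share. Levels are given as CPM (counts scaled to the reads used in a library) in the order of replicates 1, 2 and 3. All 9 fibroblast marker genes were detected in every condition in both assays, and their summed mRNA level was 32653 to 36818 CPM in young, 28845 to 33555 in old and 14316 to 14587 in ICM libraries. The proliferation markers MKI67 and TOP2A summed to 287.5 to 307.4 CPM of mRNA in young, 59.8 to 68.3 in old and 3.37 to 4.36 in ICM libraries. Summed markers of other cell types were low, at 14.7 to 17.7 CPM in young and 0.545 to 2.39 in arrested libraries for 4 epithelial genes (SFTPC at 0 in young and old), and for 3 endothelial genes (CDH5 at 0) at 0.617 to 0.677 in young, 0.797 to 0.990 in old and 3.66 to 4.61 in ICM libraries. For 3 immune genes the sums were 19.8 to 22.0 CPM in young, 31.0 to 33.9 in old and 56.4 to 67.3 in ICM libraries. Nearly all of this was CD68, with 19.6 to 21.8 CPM in young, 30.1 to 32.9 in old and 55.5 to 66.5 in ICM libraries. PTPRC and CD14 were at most 0.233 and 0.913 CPM in any library. The part of these lists in the changes of the replication genes was not tested. These are bulk lysates, in which fewer cells that express a gene and less of its mRNA per cell cannot be told apart.

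The mRNA of nearly all replication genes was lower in both arrested states than in young cells, and lower in ICM than in old cells. In ICM vs young, 50 of the 52 genes fell and 0 rose at an adjusted p under 0.05 (edgeR, as below), while 36.1% of the 13173 genes tested fell and 34.9% rose. In old vs young, 48 fell and 1 rose, against 33.7% and 32.4% of all genes. In ICM vs old, 45 fell and 0 rose, against 32.6% and 30.7%. For ICM cells against either other state, DESeq2 also called 0 of the 52 genes higher, and 0 rose at an unadjusted p under 0.05. The median log2 change of the 52 genes was -2.48 between ICM and young cells and -1.32 between old and young cells, while that over all genes was -0.01 in each. The comparisons with young share the same 3 young libraries.

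Falls were deeper with inflachromene. They exceeded 2-fold for 42 genes in ICM and 33 in old, and exceeded 8-fold for 13 genes in ICM and 0 in old. In 49 of the 52 genes the log2 change from young was lower in ICM than in old. These counts were not made over all genes. ICM vs old contrasts no young library, although young libraries were part of the fit of all 9. It gave a median of -1.13, beside -0.01 over all genes. The 7 genes not called in it were PCNA, RFC1, DNA2, RPA3, DUT, CCNE1 and TIPIN. With only the ICM and old libraries in the edgeR fit the median was -1.12, beside 0.01 over all 12971 genes. RPA3 was then called higher (0.30, adjusted p = 0.0472).

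**Figure D1:**
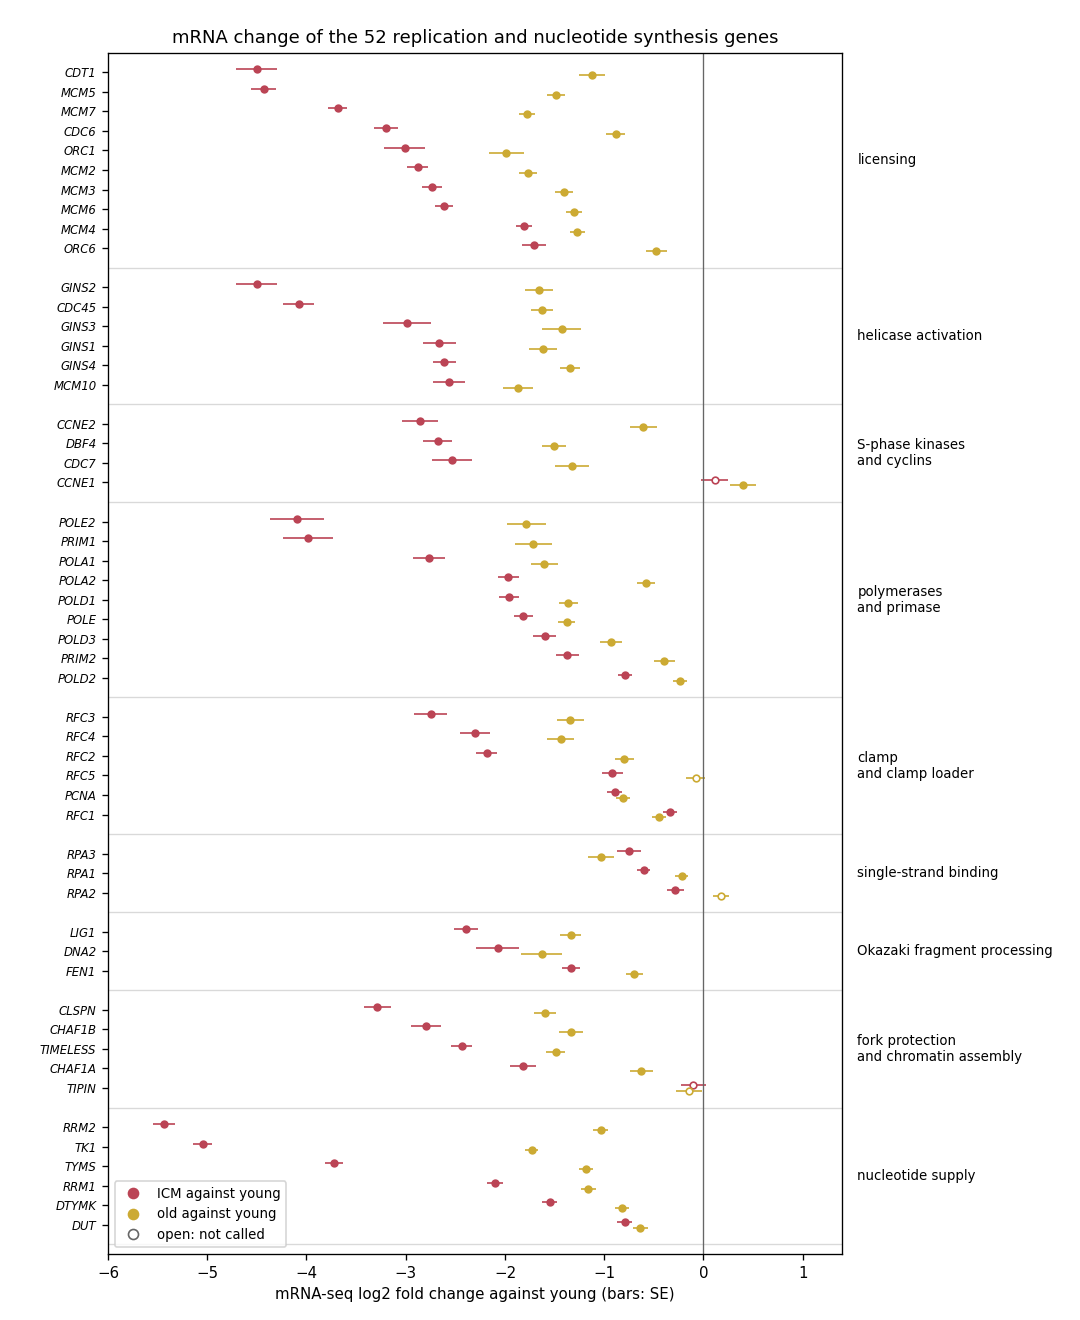
Log2 change in mRNA level (horizontal axis) of the 52 genes for old (against young) and ICM (against young), with the genes in their functional groups on the vertical axis, bars for standard errors and open points where a change was not called. Most ICM points lie left of the old points, and TIPIN lies near 0 in both.

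The promoters of these genes were read because the genes moved together. RefSeq windows from 250 bases before to 50 bases after the annotated start (GRCh38.p14) were found for 44 of the 52 genes, in 58 windows. MCM4, MCM5, GINS4, CCNE2, POLD3, RPA2, RPA3 and DNA2 had no entry. The letters TTTCCCGC, TTTCGCGC, TTTGCCGC or TTTGGCGC, which E2F factors are known to bind, were searched on both strands. They occurred in 21 of the 58 windows (36.2%), and in 3.31% of all 35116 windows of the same length. A CCAAT box (CCAAT on either strand) was found in 53.4% of the windows and in 34.6% of all windows, and TTTGAA, the core of the CHR element of late cell-cycle genes, in 5.17% and 15.2%. The windows of all genes were not matched to those of the 52 by base composition or expression. The part of base composition in these shares was not tested. A match is a description of letters and not a bound site.

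The stretches below are 30 bases each, 5′ to 3′ along the direction of transcription, with the E2F-type letters in capitals. They come from 7 of the genes described singly below, show the letters on either strand, and were chosen from matches that lie wholly upstream of the annotated start. CDC7 and TYMS also hold such a match, and POLE2 and CLSPN hold one that reaches past the start. These 4 are not printed.
MCM7: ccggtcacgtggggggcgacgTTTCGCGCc
CDT1: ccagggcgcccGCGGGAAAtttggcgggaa
GINS2: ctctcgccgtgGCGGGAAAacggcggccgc
PCNA: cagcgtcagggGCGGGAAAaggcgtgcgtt
RFC3: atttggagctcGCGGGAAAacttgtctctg
LIG1: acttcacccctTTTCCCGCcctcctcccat
TIPIN: gcacggaTTTGGCGCCAAAcgctgcgggcc

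In GRCh38.p14 the MCM7 stretch is chr7:100101398-100101427 (minus strand), CDT1 chr16:88803743-88803772 (plus), GINS2 chr16:85688967-85688996 (minus) and PCNA chr20:5126663-5126692 (minus). RFC3 is chr13:33818083-33818112 (plus), LIG1 chr19:48170440-48170469 (minus) and TIPIN chr15:66356729-66356758 (minus). The capitals of TIPIN read the same on both strands, so that its 2 matches overlap. The 21 genes with a match had a median log2 change of -2.75 in ICM vs young, and the 23 without one -2.10. In old vs young these medians were -1.34 and -1.04. RRM2 and TK1, which fell the most of the 52 genes in ICM cells, had no match in these windows.

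Origin licensing genes fell in all 10 cases in both arrested states. Their median log2 change was -2.94 in ICM vs young, from -4.50 (CDT1) to -1.71 (ORC6), and -1.36 in old vs young, from -1.99 (ORC1) to -0.48 (ORC6). Their summed mRNA was 35.6% of the young level in old and 14.1% in ICM cells. MCM7, a helicase subunit, had 135, 126 and 136 CPM in young, 35.5, 35.8 and 36.7 in old and 12.4, 10.5 and 8.33 in ICM libraries. The 3 conditions did not overlap and ICM was lowest. The log2 change was -3.68 (standard error, SE, 0.09, adjusted p = 2.68e-19) in ICM vs young and -1.78 (SE 0.08, adjusted p = 1.4e-14) in old vs young.

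CDT1, the loading factor that licenses MCM rings, had 22.8, 20.4 and 25 CPM in young, 8.73, 9.26 and 11.3 in old and 0.467, 1.04 and 1.60 in ICM libraries. ICM lay below old in every library, with a log2 change of -3.38 (SE 0.23, adjusted p = 1.96e-11) between these states. From young, CDT1 changed by -4.50 (SE 0.20, adjusted p = 7.88e-15) in ICM and by -1.12 (SE 0.13, adjusted p = 1.26e-07) in old. MCM subunits of the same ring did not fall by the same amount. In ICM vs young MCM5 changed by -4.43 and MCM4 by -1.81, and in old vs young by -1.48 and -1.27.

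As CPM per kilobase of coding sequence, pooled over libraries, the MCM2-7 subunits ranged in young mRNA from 22.3 (MCM2) to 86.6 (MCM7), a ratio of 3.88. In old cells the same 2 subunits marked the ends, with a ratio of 3.92. In ICM cells the range ran from 1.66 (MCM5) to 9.86 (MCM4), a ratio of 5.94. The highest and lowest subunits in ICM cells were thus not those of young and old cells. Whether these ratios differ between conditions was not tested.

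Helicase activation genes fell in all 6 cases in both states. The median log2 change was -2.82 in ICM, from -4.50 (GINS2) to -2.56 (MCM10), and -1.62 in old, from -1.86 (MCM10) to -1.35 (GINS4). GINS4, a subunit of the 4-protein GINS complex, had 34.7, 33.3 and 33.8 CPM in young, 10.8, 11.9 and 14.7 in old and 5.45, 5.66 and 5.85 in ICM libraries. No 2 conditions overlapped. Its log2 change was -2.61 (SE 0.11, adjusted p = 3.19e-15) in ICM and -1.35 (SE 0.10, adjusted p = 5.58e-11) in old.

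GINS2, its partner subunit, had 27.0, 23.6 and 19.6 CPM in young, 6.39, 6.15 and 8.24 in old and 1.56, 0.754 and 0.709 in ICM libraries. Old and ICM were separate, with a log2 change of -2.84 (SE 0.25, adjusted p = 1.82e-09) between them. In ICM vs young GINS2 changed by -4.50 (SE 0.21, adjusted p = 9.87e-15), and in old vs young by -1.66 (SE 0.14, adjusted p = 9.18e-10). CDC45, which joins GINS on the helicase, changed by -4.08 in ICM and by -1.63 in old.

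Of the kinase and cyclin genes, 3 of 4 fell in each state. DBF4, the activating subunit of the CDC7 kinase, had 18.6, 17.7 and 21.5 CPM in young, 5.38, 6.86 and 6.64 in old and 2.80, 3.58 and 2.84 in ICM libraries, with no overlap. Its log2 change was -2.68 (SE 0.14, adjusted p = 1.54e-13) in ICM and -1.50 (SE 0.12, adjusted p = 4.97e-10) in old. CDC7, the kinase itself, had 8.98, 6.52 and 8.03 CPM in young, 2.54, 2.97 and 3.10 in old and 1.48, 1.04 and 1.51 in ICM libraries. These groups were separate as well, and its log2 changes were -2.53 (SE 0.20, adjusted p = 1.39e-10) and -1.33 (SE 0.17, adjusted p = 4.66e-07). CCNE2, which encodes cyclin E2, had 9.87, 9.96 and 9.29 CPM in young, 4.97, 6.43 and 6.29 in old and 1.09, 1.32 and 1.68 in ICM libraries. It fell in both states, with log2 changes of -2.86 (SE 0.18, adjusted p = 4.27e-12) in ICM and -0.61 (SE 0.14, adjusted p = 0.000453) in old. It shares 1522 exonic bases with INTS8 on the opposite strand.

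CCNE1, which encodes cyclin E1, did not follow CCNE2. It had 8.61, 6.96 and 8.32 CPM in young, 9.54, 10.3 and 9.30 in old and 8.72, 9.81 and 7.63 in ICM libraries. Old libraries all lay above young ones, while ICM libraries overlapped both. CCNE1 rose in old vs young by a log2 change of 0.40 (SE 0.13, adjusted p = 0.0114) and was not called in ICM vs young (0.11, SE 0.14, adjusted p = 0.464). Without young replicate 2 the rise was 0.30 with an adjusted p of 0.0845, so that the call rests on that library.

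All 9 polymerase and primase genes fell in both states. The median log2 change was -1.96 in ICM, from -4.10 (POLE2) to -0.79 (POLD2), and -1.36 in old, from -1.78 (POLE2) to -0.24 (POLD2). POLE2, the second subunit of polymerase epsilon, had 5.82, 6.52 and 6.97 CPM in young, 1.32, 1.63 and 2.30 in old and 0.389, 0.471 and 0.266 in ICM libraries. The groups did not overlap, and the log2 change was -4.10 (SE 0.27, adjusted p = 7.12e-12) in ICM and -1.78 (SE 0.20, adjusted p = 4.5e-08) in old.

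POLD2, an accessory subunit of polymerase delta, had 120, 112 and 105 CPM in young, 94.7, 88.7 and 84.7 in old and 69.8, 60.2 and 68.4 in ICM libraries. The groups were separate here too, but close. Its log2 change was -0.79 (SE 0.07, adjusted p = 1.43e-09) in ICM and -0.24 (SE 0.07, adjusted p = 0.00475) in old. PRIM1, the catalytic subunit of primase, changed by -3.98 in ICM and by -1.71 in old.

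**Figure D2:**
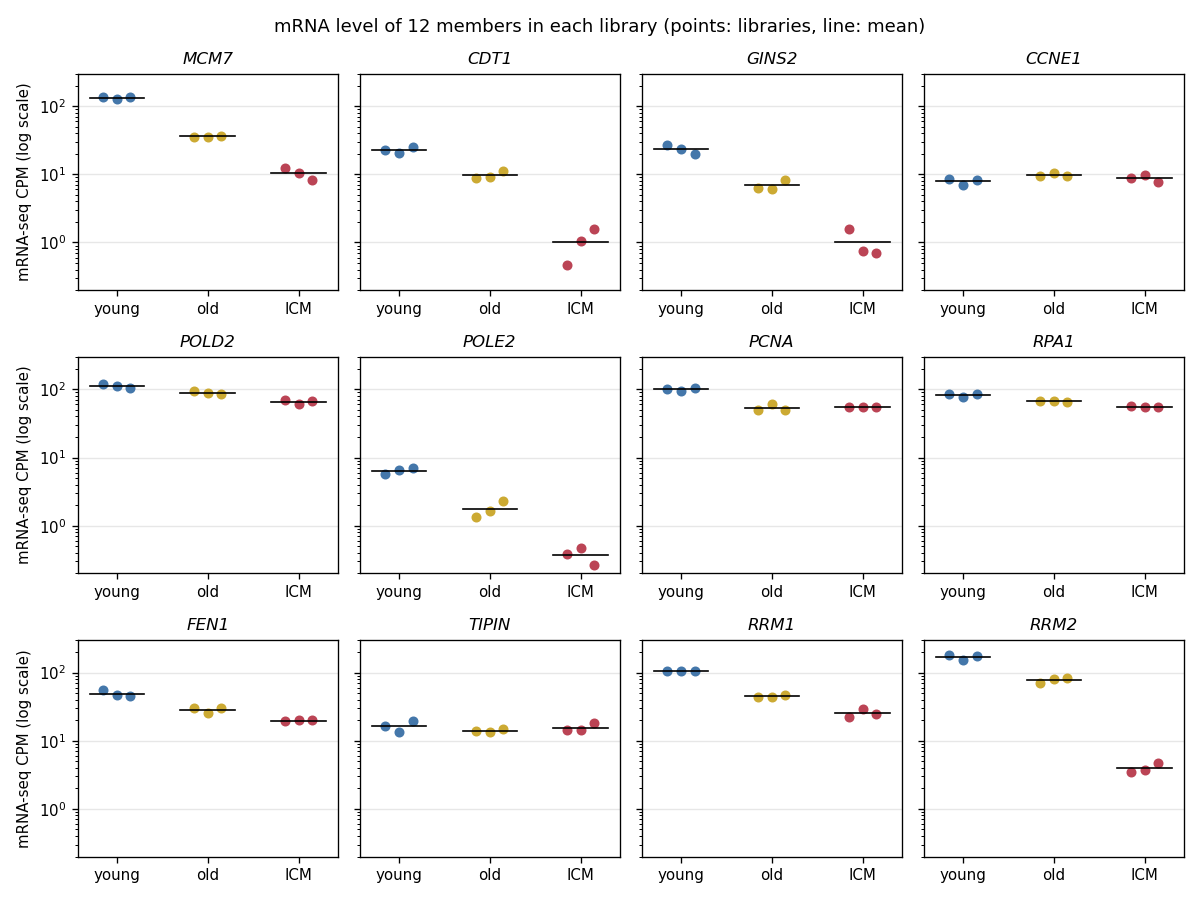
mRNA level in CPM (log axis) of 12 of the 52 genes, one panel per gene and one point per library, with a line at the mean of the young, old and ICM libraries. RRM2 falls from 153 to 181 CPM in young to 3.42 to 4.79 in ICM libraries, while the TIPIN points of the 3 conditions overlap.

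Clamp and clamp loader genes fell in 6 of 6 cases in ICM (median log2 change -1.55) and in 5 of 6 in old (-0.80). PCNA, the sliding clamp, had 101, 95.8 and 105 CPM in young, 49.9, 60.8 and 49.9 in old and 54.8, 55.3 and 55.7 in ICM libraries. Both arrested states lay below young and overlapped each other. The log2 change was -0.89 (SE 0.07, adjusted p = 3.51e-10) in ICM and -0.81 (SE 0.07, adjusted p = 2.61e-09) in old, and ICM vs old was not called (-0.08, SE 0.08, adjusted p = 0.367).

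RFC3, a subunit of the clamp loader, had 19.6, 16.1 and 20.1 CPM in young, 6.90, 6.08 and 7.70 in old and 1.95, 3.21 and 3.37 in ICM libraries. It was lowest in ICM, with a log2 change of -2.75 (SE 0.16, adjusted p = 9.39e-13), and changed by -1.34 (SE 0.14, adjusted p = 1.52e-08) in old. RFC5, another subunit, had 29.4, 28.0 and 29.5 CPM in young, 20.7, 27.2 and 28.5 in old and 16.9, 14.9 and 14.8 in ICM libraries. Old overlapped young, and RFC5 was called in ICM (-0.92, SE 0.11, adjusted p = 7.26e-08) but not in old cells (-0.08, SE 0.10, adjusted p = 0.487).

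The 3 subunits of RPA, which coats single-stranded DNA, moved least as a group, with median log2 changes of -0.60 in ICM and -0.22 in old. RPA1 had 86.1, 77.3 and 86.0 CPM in young, 67.7, 67.9 and 64.8 in old and 57.2, 55.6 and 54.2 in ICM libraries, in descending order without overlap. Its log2 change was -0.60 (SE 0.07, adjusted p = 3.96e-08) in ICM and -0.22 (SE 0.07, adjusted p = 0.0057) in old. With CDS reads alone, the latter was -0.14 and not called (adjusted p = 0.111).

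RPA2 had 34.5, 33.4 and 33.2 CPM in young, 31.9, 38.5 and 36.0 in old and 27.2, 30.2 and 27.0 in ICM libraries. ICM lay below the others, while old and young overlapped. It fell by 0.29 (SE 0.09, adjusted p = 0.00506) on the log2 scale in ICM and was not called in old (0.17, SE 0.08, adjusted p = 0.0697). RPA3 had 14.9, 11.4 and 14.6 CPM in young, 6.29, 6.22 and 6.02 in old and 8.41, 8.20 and 7.89 in ICM libraries. It was lowest in old cells, with a log2 change of -1.03 (SE 0.13, adjusted p = 3.03e-07) in old and -0.75 (SE 0.12, adjusted p = 1.05e-05) in ICM. ICM vs old was 0.28 (SE 0.14, adjusted p = 0.0763), the highest of the 52 genes in that comparison.

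The 3 Okazaki fragment genes fell in both states, with medians of -2.07 in ICM and -1.34 in old. FEN1, the nuclease that trims flaps of RNA primers, had 56.2, 46.7 and 44.5 CPM in young, 29.9, 25.5 and 29.8 in old and 19.3, 19.8 and 20.1 in ICM libraries, with no overlap. It changed by -1.33 (SE 0.09, adjusted p = 2.19e-11) in ICM and by -0.69 (SE 0.09, adjusted p = 5.64e-07) in old. LIG1, the ligase that seals the fragments, had 25.2, 24.4 and 26.6 CPM in young, 8.93, 8.34 and 11.1 in old and 4.75, 5.47 and 4.61 in ICM libraries. It fell more than FEN1 in both, with log2 changes of -2.39 (SE 0.12, adjusted p = 7.45e-14) and -1.34 (SE 0.11, adjusted p = 3.99e-10).

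Of the fork protection and chromatin assembly genes, 4 of 5 fell in each state, with medians of -2.44 in ICM and -1.34 in old. TIMELESS, a stabiliser of the fork, had 49.2, 39.7 and 42.5 CPM in young, 13.6, 14.3 and 15.7 in old and 7.86, 9.15 and 7.63 in ICM libraries. CLSPN, which encodes the checkpoint mediator claspin, had 26.8, 22.6 and 21.7 CPM in young, 7.21, 7.28 and 7.35 in old and 2.65, 2.45 and 2.22 in ICM libraries. Neither gene had overlapping groups. TIMELESS changed by -2.44 (SE 0.11, adjusted p = 4.13e-15) in ICM and by -1.49 (SE 0.10, adjusted p = 8.75e-12) in old. CLSPN changed by -3.29 (SE 0.14, adjusted p = 1.85e-15) and by -1.60 (SE 0.11, adjusted p = 2.78e-11).

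TIPIN, the partner that binds TIMELESS, was called in neither. It had 16.3, 13.2 and 19.6 CPM in young, 13.8, 13.2 and 14.6 in old and 14.2, 14.3 and 17.9 in ICM libraries. All 3 groups overlapped. The log2 change was -0.10 (SE 0.13, adjusted p = 0.465) in ICM and -0.14 (SE 0.13, adjusted p = 0.327) in old.

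The columns of the transcript parts were not alike in all genes. Of 104 changes from young, 7 in 5 genes differed by over 0.4 between CDS reads alone and all reads. They were those of TIPIN and RFC5 in both states, and of CLSPN, CCNE2 and CHAF1B in ICM. With CDS reads alone, CLSPN changed by -4.45 and CCNE2 by -3.59 in ICM, beside -3.29 and -2.86 with all reads. TIPIN and RFC5 follow in detail. TIPIN had 9.24, 6.87 and 9.48 CPM of CDS reads in young, 4.97, 6.29 and 4.16 in old and 4.59, 4.34 and 5.05 in ICM libraries. Its 5′ UTR had 4.56, 3.70 and 8.03 CPM in young, 7.0, 5.94 and 8.94 in old and 8.02, 8.67 and 11.4 in ICM libraries. CDS reads were thus fewer in every arrested library than in every young one, and 5′ UTR reads were not. With CDS reads alone, TIPIN was called lower in ICM (-0.85, SE 0.17, adjusted p = 0.00031) and in old (-0.58, SE 0.17, adjusted p = 0.0068).

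For RFC5, CDS reads stood at 10.8, 9.61 and 8.32 CPM in young, 4.57, 4.03 and 3.19 in old and 2.18, 3.39 and 1.95 in ICM libraries. Its 3′ UTR had 17.6, 17.1 and 20.1 CPM in young, 16.1, 23.1 and 24.6 in old and 14.3, 11.3 and 12.5 in ICM libraries. The CDS alone gave log2 changes of -1.93 (SE 0.19, adjusted p = 4.75e-08) in ICM and -1.16 (SE 0.17, adjusted p = 1.16e-05) in old. An annotated transcript on the opposite strand overlaps 160 exonic bases of RFC5, and whether strand was used in counting is not stated. Over the 52 genes, 51 fell in ICM and 49 in old with CDS reads alone, beside 4127 and 3804 of the 12350 genes tested. The genes not called lower were then CCNE1 in both and RPA1 and RPA2 in old. The cause of the differences between transcript parts was not tested.

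In ICM cells the nucleotide supply genes had the widest range of changes of the 9 groups. All 6 fell in both states, with a median log2 change of -2.91 in ICM, from -5.44 (RRM2) to -0.79 (DUT), and -1.10 in old, from -1.73 (TK1) to -0.64 (DUT). Their summed mRNA was 43.0% of the young level in old and 15.4% in ICM cells. RRM2, the subunit of ribonucleotide reductase made in S phase, had 181, 153 and 176 CPM in young, 70.0, 79.5 and 82.7 in old and 3.42, 3.77 and 4.79 in ICM libraries. Every ICM library lay far below every old one, with a log2 change of -4.40 (SE 0.12, adjusted p = 5.71e-19) between them. From young, RRM2 changed by -5.44 (SE 0.11, adjusted p = 7.44e-21) in ICM and by -1.04 (SE 0.07, adjusted p = 4.86e-11) in old.

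RRM1, the large subunit of the same enzyme, had 106, 107 and 107 CPM in young, 43.2, 44 and 46.8 in old and 22.2, 29.1 and 24.7 in ICM libraries. It fell in both, with log2 changes of -2.10 (SE 0.08, adjusted p = 5.34e-16) in ICM and -1.16 (SE 0.08, adjusted p = 1.17e-11) in old. Per kilobase of coding sequence, RRM2 mRNA relative to RRM1 mRNA was 3.05, 2.55 and 2.87 in young, 2.60, 2.96 and 2.74 in old and 0.217, 0.223 and 0.314 in ICM libraries. Young and old overlapped, and ICM lay below both, so that RRM1 was the more abundant of the pair in ICM libraries. This ratio was not tested.

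TK1, thymidine kinase of the salvage pathway, had 111, 106 and 109 CPM in young, 31.1, 30.3 and 30.8 in old and 3.04, 3.58 and 3.46 in ICM libraries. TYMS, thymidylate synthase, had 120, 107 and 106 CPM in young, 41.9, 49.6 and 44.7 in old and 8.64, 8.30 and 8.60 in ICM libraries. Both genes had separate groups, with log2 changes in ICM vs young of -5.05 for TK1 and -3.72 for TYMS, and in old vs young of -1.73 and -1.18. TYMS shares 967 exonic bases with ENOSF1 on the opposite strand, so that its reads are uncertain to that extent. DTYMK and DUT, a thymidylate kinase and the dUTPase, changed less, by -1.55 and -0.79 in ICM and by -0.82 and -0.64 in old.

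**Figure D3:**
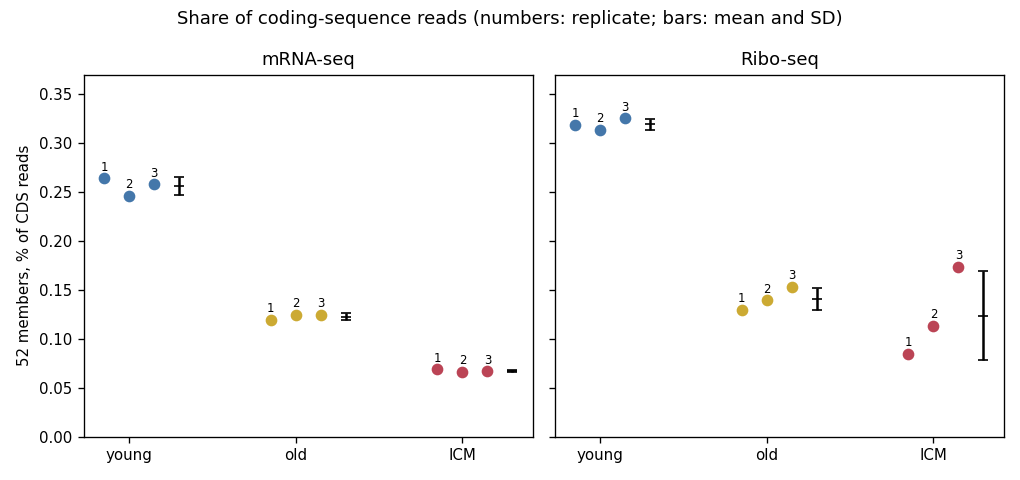
Share of all CDS reads (percent, vertical axis) in the 52 genes, one point per library with the group mean, for mRNA-seq and Ribo-seq in young, old and ICM cells. Means are 0.256%, 0.123% and 0.0671% in mRNA-seq, and the ICM Ribo-seq libraries spread from 0.0849% to 0.173%.

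Footprints on these genes made up a smaller share of reads in every old and ICM library than in every young one. The 52 genes took 0.256% ± 0.0093 of mRNA-seq CDS reads in young, 0.123% ± 0.0032 in old and 0.0671% ± 0.0013 in ICM libraries (mean ± SD, n = 3). Of Ribo-seq CDS reads they took 0.318%, 0.314% and 0.325% in young, 0.130%, 0.139% and 0.153% in old and 0.0849%, 0.113% and 0.173% in ICM libraries. These shares were not tested. ICM replicate 3 held the highest share of the ICM libraries. It also had the highest summed footprint level of MKI67 and TOP2A (151.6 CPM, against 13.3 CPM in ICM replicate 1, the lowest). These are few reads, since 3 reads are 65.0 CPM in ICM replicate 3 and 13.3 CPM in ICM replicate 1. In mRNA-seq, ICM replicate 3 had the lowest level of both genes among the ICM libraries (MKI67 0.62 and TOP2A 2.75 CPM). The part of the composition of ICM replicate 3 in the results was not tested.

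Depth limits what footprints show here. Ribo-seq counts of 17 of the 52 genes passed the filter on low counts, namely MCM2, MCM3, MCM4, MCM5, MCM6, MCM7, POLD2, PCNA, RFC1, RPA1, FEN1, RRM1, RRM2, TYMS, TK1, DTYMK and DUT. A gene can pass that filter through its young libraries alone, so the counts that follow describe these 17 and not the 52. Of these, 12 were lower in ICM than in young cells, 13 were lower in old than in young, and 4 were lower in ICM than in old, against 12.9%, 17.0% and 7.62% of the 4643 genes tested. None of the 17 rose, also at an unadjusted p under 0.05 and with DESeq2, while 13.7%, 19.3% and 5.79% of all genes did. DESeq2 called 8, 6 and 1 lower, beside 339, 234 and 186 of the 4643 genes tested. In ICM vs young, 22 of the 34 genes then passing the filter fell without ICM replicate 3, and 9 of 31 without ICM replicate 1. Over all genes these fits called 1007 of 7323 and 450 of 6720 lower. When mRNA-seq was thinned to the Ribo-seq depth of the same lysates, 14 of the 52 genes passed the filter and 11, 11 and 3 were called lower. Of all 5333 genes then passing, 823, 1245 and 646 were called lower.

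RRM2 footprints were at 221, 385 and 376 CPM in young, 127, 147 and 161 in old and 13.3, 12.7 and 173 in ICM libraries. The ICM values came from 3, 1 and 8 reads, and the third lay above every old library, so that ICM and old overlapped while both lay below young. The log2 change was -3.35 (SE 0.44, adjusted p = 2.84e-07) from young to ICM, -1.24 (SE 0.23, adjusted p = 8.53e-05) from young to old and -2.11 (SE 0.49, adjusted p = 0.00219) from old to ICM. With DESeq2 the old vs young change (adjusted p = 0.422) and the ICM vs old change (-1.51, adjusted p = 0.392) were not called. The latter was also lost without ICM replicate 1 (-1.22, adjusted p = 0.155), and both were lost when Ribo-seq was thinned to its shallowest library (adjusted p = 0.0707 and 0.465). Pooled over libraries, the fall from young was 10.9-fold (95% counting interval 6.24 to 21.3) in ICM and 2.75-fold (2.42 to 3.14) in old. Intervals cover counting error only.

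RRM1 footprints were at 129, 228 and 253 CPM in young, 83.7, 55.0 and 92.5 in old and 66.7, 88.7 and 130 in ICM libraries. The third ICM library overlapped young. Its log2 change was -1.52 (SE 0.32, adjusted p = 0.000465) in ICM and -1.32 (SE 0.21, adjusted p = 8.44e-06) in old. PCNA had 221, 210 and 215 CPM in young, 90.9, 73.3 and 120 in old and 129, 88.7 and 65.0 in ICM libraries. Old and ICM overlapped below young. The log2 change of PCNA footprints was -0.96 (SE 0.29, adjusted p = 0.0127) in ICM and -0.97 (SE 0.21, adjusted p = 0.000433) in old. The call in ICM was lost with DESeq2 (adjusted p = 0.0647), with the replicate number as a block (0.0523) and without young replicate 3 (0.0573), and that in old when Ribo-seq was thinned (0.398).

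MCM7 footprints were at 258, 204 and 173 CPM in young, 49.0, 110 and 44.5 in old and 13.3, 88.7 and 108 in ICM libraries. Old and ICM overlapped, and both lay below young, with log2 changes of -1.82 (SE 0.27, adjusted p = 2.06e-06) and -2.11 (SE 0.43, adjusted p = 0.000313). Without ICM replicate 1 the ICM value was -1.12 and not called (adjusted p = 0.0871). RPA1, the large subunit of RPA, had 147, 139 and 138 CPM in young, 99.8, 73.3 and 125 in old and 93.3, 114 and 260 in ICM libraries. Old lay below young, while ICM overlapped both. RPA1 was called in neither, at -0.16 (adjusted p = 0.738) in ICM and -0.25 (adjusted p = 0.407) in old. POLD2 was at -0.26 and -0.20, also not called.

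TK1 footprints were at 147, 134 and 148 CPM in young, 55.6, 36.6 and 80.5 in old and 0, 12.7 and 0 in ICM libraries. The ICM value is a single read, and the pooled fall was 50.4-fold with a counting interval of 8.99 to 1997. MCM5 had 2 reads in ICM, a fall of 18.2-fold (4.98 to 151). Over all 52 genes, 9 had no footprint in the 350091 pooled ICM reads, which allows up to 8.57 CPM, and 17 more had 1 to 3 reads. The pooled young level was 4.32-fold that limit (3 counts over the ICM libraries) for POLA1, 3.56-fold for RFC3, 3.32-fold for CDC45 and 2.37-fold for GINS2. The ratios of ORC1, GINS1, CCNE1, CCNE2 and PRIM1 were smaller, down to 1.04-fold. These ratios leave out the counting error of the young reads and the differences between replicates.

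**Figure D4:**
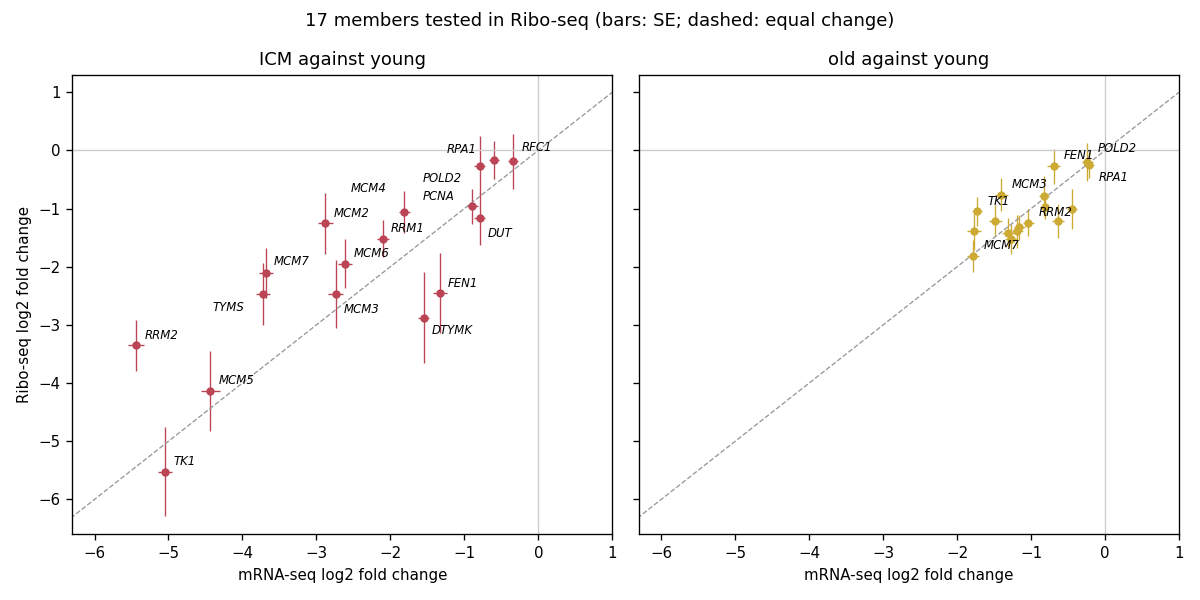
Log2 change in footprints (vertical axis) against log2 change in mRNA (horizontal axis) for the 17 genes past the Ribo-seq filter, in old vs young and ICM vs young, with bars for standard errors and a line where both are equal. Points of old vs young lie near the line, and in ICM vs young RRM2, MCM7 and MCM2 lie above it and DTYMK and FEN1 below.

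Translational efficiency, the change in footprints relative to mRNA, was called in 0 of the 17 genes in each of the 3 comparisons by edgeR and also by DESeq2. Of the 4618 genes tested, 2.38% were called for ICM against young, 1.43% for old against young and 0.346% for ICM against old. At an unadjusted p under 0.05 there were 3, 1 and 3 of the 17, all higher. The share of all genes at that threshold was not counted, so no trend of the 17 can be read from this. The median log2 change of the 17 was 0.42, -0.05 and 0.50, beside 0.06, -0.00 and 0.06 over all genes. In ICM vs young the median was 0.70 (31 genes) without ICM replicate 1, 0.20 (34 genes) without ICM replicate 3, and -0.01 over the 52 genes with no filter. The medians over all genes shifted as well, to -0.13, -0.05 and -0.37 in these fits. In ICM vs old the median of the replication genes was 0.78 without ICM replicate 1 and 0.31 (35 genes) without old replicate 2. Over all genes it was -0.14 and -0.07. FEN1 (-1.21, SE 0.80, adjusted p = 0.479) and DTYMK (-1.38, SE 0.93, adjusted p = 0.486) had the lowest values in ICM vs young. RRM2 had 2.21 (SE 0.69, adjusted p = 0.08) in ICM vs young and 2.40 (SE 0.71, adjusted p = 0.134) in ICM vs old. Without ICM replicate 1, RRM2, MCM7, TYMS and CDT1 were called higher in ICM vs young, and RRM2, MCM7 and CDT1 in ICM vs old. Over all 6687 genes these comparisons called 56 and 22 higher, with 78939 and 46170 reads in the ICM libraries left. CDT1 had 6 footprint reads over the ICM libraries. In ICM vs young CDT1 was also called higher with no filter, without young replicate 1 and without ICM replicate 2. Those fits called 31 of 13607, 49 of 7216 and 50 of 7128 genes higher. RRM2 was called in the last of them. With no filter CDT1 was also called in ICM vs old. Per kilobase, RRM2 footprints relative to RRM1 footprints were 3.49, 3.45 and 3.03 in young, 3.10, 5.43 and 3.54 in old and 0.407, 0.291 and 2.71 in ICM libraries.

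Other genes of the pathway were taken on 3 lists that hold none of the 52, and their counts stand beside the shares of all genes given above (36.1% lower and 34.9% higher in ICM, 33.7% and 32.4% in old). Of 37 other replication genes, 29 fell and 5 rose in ICM vs young (median log2 change -1.22), and 31 fell and 1 rose in old vs young (-0.90). Of 15 other deoxynucleotide and folate genes, 9 fell and 6 rose in ICM (-0.38), and 7 fell and 5 rose in old (-0.15), so that the share that rose was near that of all genes. Of 15 genes of de novo purine and pyrimidine synthesis, 13 fell and 0 rose in ICM (-0.57, with 0 rising at an unadjusted p under 0.05), and 11 fell and 2 rose in old (-0.70).

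Partners of the same role stood apart in several cases. ASF1A and ASF1B are paralogous histone chaperones that hand histones to the assembly factor CAF-1. ASF1B had 26.7, 22.8 and 21.3 CPM in young, 9.74, 12.2 and 13.0 in old and 0.700, 0.377 and 1.15 in ICM libraries, with a log2 change of -4.97 in ICM and -0.90 in old. ASF1A had 25.3, 22.4 and 23.0 CPM in young, 15.3, 19.4 and 16.9 in old and 63.9, 56.0 and 59.6 in ICM libraries. It was highest in ICM (1.33) and fell in old (-0.34, adjusted p = 0.00449). POLD4, the smallest subunit of polymerase delta, rose in both states while POLD1, POLD2 and POLD3 fell, with log2 changes of 0.50 and 0.72.

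RRM2B, the p53-inducible counterpart of RRM2, had 42.5, 37.9 and 48.3 CPM in young, 87.3, 93.0 and 95.9 in old and 122, 110 and 126 in ICM libraries. The order was the reverse of that of RRM2, with rises of 1.45 (SE 0.08, adjusted p = 1.79e-13) in ICM and 1.20 (SE 0.08, adjusted p = 1.23e-11) in old. TK2, the mitochondrial thymidine kinase, had 36.1, 31.7 and 29.4 CPM in young, 54.0, 54.4 and 57.6 in old and 54.3, 52.2 and 51.9 in ICM libraries, and rose by 0.69 and 0.87 while TK1 fell. Of the origin recognition subunits outside the 52, ORC2 changed by -0.71 in ICM and -0.83 in old, while ORC3 and ORC4 rose in ICM (0.29 and 0.33) and were not called in old.

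**Figure D5:**
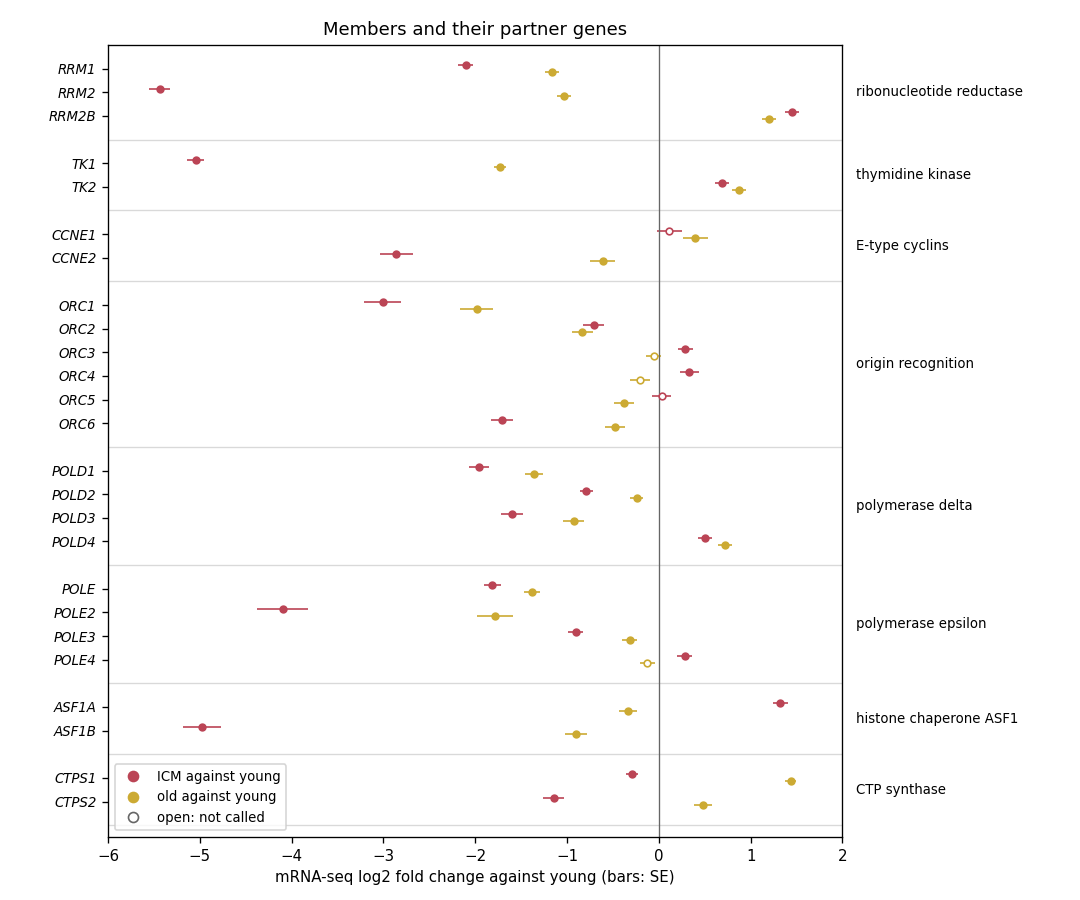
Log2 change in mRNA level against young cells (horizontal axis) of genes beside the partners that share their role (vertical axis), for ICM and old cells, with bars for standard errors and open points where a change was not called. RRM2B and TK2 lie right of 0 in both states, ASF1A does so in ICM alone, and RRM2, TK1 and ASF1B lie left of 0.

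In nucleotide synthesis from small precursors, PFAS, an enzyme of purine synthesis, had 33.3, 35.9 and 37.1 CPM in young, 9.13, 8.20 and 9.92 in old and 6.38, 6.13 and 5.67 in ICM libraries. Its log2 change was -2.57 in ICM and -1.88 in old. CTPS1, one of the CTP synthases, had 76.7, 73.1 and 76.2 CPM in young, 180, 188 and 205 in old and 62.9, 63.5 and 61.6 in ICM libraries. It rose in old (1.44, adjusted p = 1.4e-14) and fell in ICM (-0.29, adjusted p = 0.000549). CTPS2, the other CTP synthase, showed the same order with 19.1, 19.5 and 19.4 CPM in young, 24.1, 27.1 and 24.7 in old and 10.4, 8.86 and 7.27 in ICM libraries, at 0.49 in old and -1.15 in ICM.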

How the data were processed

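The files give estimated counts per gene symbol, as deposited by the authors without scaling, in columns for the 5′ UTR, CDS, 3′ UTR and other classes. In Ribo-seq, 14.1% to 23.2% of non-zero entries were not whole. The submitters' processing notes name STAR 2.6.0c, featureCounts, DESeq2, deepTools and GRCh37, without saying which were used for these tables, and the use of strand is not given in the sources used here. Reads of genes with near-identical copies or overlapping neighbours are therefore uncertain.

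CDS reads were used for Ribo-seq and the 3 columns were summed for mRNA-seq, and estimated counts were rounded. Quasi-likelihood tests (glmQLFTest) of edgeR 4.0.16, run under R 4.3.3 after TMM scaling and filterByExpr, took the 9 libraries of an assay in one fit. Translational efficiency was the interaction of assay and condition in a fit of both assays, blocked by lysate, since the methods state that each lysate was divided between the assays. The labels differ from the methods: they name Trizol extraction for all libraries, and give polyA RNA for Ribo-seq and total RNA for mRNA-seq. The methods were followed. The study used anota2seq, which was not used here. P-values are two-sided with Benjamini-Hochberg adjustment over all genes tested, and a gene was called at an adjusted p under 0.05. SE is an approximate standard error of a log2 change. For edgeR it was taken as the absolute log2 change divided by the square root of the F statistic of its test. It is less reliable for changes near 0, and the bars in the figures show the same quantity. Alternatives included DESeq2 1.42.0, RLE scaling, no filter, CDS reads alone, thinned mRNA-seq and leaving out each lysate.

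The genes and lists were chosen with earlier results of these data known. Every library is given for the gene with the highest young mRNA level and the gene with the largest change in each group, for genes called higher or not called, for the lowest and highest in ICM vs old, and for those with the most young footprints. Other members, and the pathway genes outside the 52, were named after their values were seen. The procedure was tested on simulated counts with known changes. Titles gave groups and replicate numbers. Across conditions, libraries with the same number did not deviate together (correlations from -0.055 to 0.103 in mRNA-seq), so no pairing between conditions was used. The mRNA-seq and Ribo-seq libraries of one lysate did not do so either (-0.080 to 0.136). The block by lysate thus rests on the methods and not on these data.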

Additional observations from a re-analysis of the deposited data

Results flagged for a closer look

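Footprints in the 3′ UTR were used in no comparison. In old replicate 2, 14.2% of the Ribo-seq reads on the 52 genes lay there, above the highest share in young libraries (8.89%, in young replicate 1).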

How the results depend on the processing

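The mRNA counts of genes lower in the arrested states moved by less than 1.5 times under every alternative run except thinning, and leaving out a lysate gave 50, 48 and 45 to 46 of the 52 genes in ICM vs young, old vs young and ICM vs old. Over all genes, leaving out a lysate gave 4485 to 4590, 4108 to 4340 and 3985 to 4216 lower, of 13269 to 13338 tested. Thinned to Ribo-seq depth, 11, 11 and 3 of 14 genes were lower, and 0 were higher in old vs young. Of all 5333 genes then tested, 823, 1245 and 646 were lower, and 1355 were higher in old vs young. The single mRNA rise in old vs young (CCNE1) was 0 at an absolute log2 change over 0.6, 2 at an adjusted p under 0.15, and 0 to 2 when a lysate was left out. In ICM vs old 1 gene (RPA3) was higher with only the 2 groups fitted, beside 4157 of 12971 over all genes, and 1 at 0.15. Footprint counts depended more on the setting. In ICM vs young, 24 of 52 were lower without a filter and 2 of 2 after thinning. Without young replicate 1, old replicate 2 and ICM replicate 3, 23 of 38 were lower. Over all genes these fits called 932 of 13714, 149 of 1091 and 1104 of 8007 lower. In old vs young, 6 of 17 were lower with DESeq2, 28 of 52 without a filter and 27 of 37 with only the 2 groups. Over all genes these were 234 of 4643, 1000 of 13714 and 1522 of 7521. After thinning 0 of 2 were lower, and without the same 3 lysates 26 of 38. Over all genes these were 84 of 1091 and 1262 of 8007. In ICM vs old, 1 of 17 was lower with DESeq2, 1 of 6 with only the 2 groups and 0 of 2 after thinning. Over all genes these were 186 of 4643, 231 of 2847 and 97 of 1091. Leaving out a lysate gave 8 to 22, 7 to 25 and 1 to 6 lower. The lysates that moved these by over 1.5 times were young replicate 1 (19 of 34 tested) and ICM replicate 3 (22 of 34) in ICM vs young, young replicate 1 (25 of 34) and young replicate 3 (7 of 14) in old vs young, and old replicate 1 (2 of 15) and ICM replicate 1 (1 of 31) in ICM vs old. Over all genes these ICM vs young fits called 853 of 7248 and 1007 of 7323 lower. The old vs young fits called 1168 of 7248 and 246 of 3925 lower, and those of ICM vs old 194 of 3969 and 322 of 6720. As a share of the genes tested, ICM vs young was lowest without ICM replicate 1 (9 of 31, beside 12 of 17 with all lysates). Over all genes these were 450 of 6720 and 601 of 4643. Higher translational efficiency was called in 1 gene without a filter and 1 at 0.15, in each of ICM vs young and ICM vs old, and in 0 to 4 and 0 to 3 when a lysate was left out. Over all genes, 31 and 14 of 13607 were higher without a filter. Without ICM replicate 1, which gave the 4 and 3, these were 56 and 22 of 6687. The share over all genes at 0.15 was not counted. In fits with the replicate number as a block, 9, 9 and 3 footprint genes were lower, and mRNA counts were 50, 48 and 45. Over all genes these were 390, 275 and 250 of 4643, and 4775, 4486 and 4322 of 13173. Without the lysate block, 1 gene (TK1) had a higher efficiency in old vs young, beside 199 of all 4618 genes. Of the named-gene results under alternatives, 0 reversed, 32 lost and 19 gained a call, and 1490 stayed on the same side of the threshold. The cause of these changes was not tested, beyond the fewer genes or libraries that an alternative holds. Ribo-seq depth limits all statements on footprints.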
